A study of Mus musculus with 4 samples.

Results

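Matrix metalloproteinase transcripts were measured in the skin of mice, 48 h after photodynamic treatment. The genes given were the collagenases Mmp1a, Mmp1b, Mmp8 and Mmp13, the gelatinases Mmp2 and Mmp9, the stromelysins Mmp3 and Mmp10, the macrophage metalloelastase Mmp12 and the membrane-type enzyme Mmp14. Members were found by the accession of every array probe, and 9 of the 10 genes had at least 1 probe, out of 16862 named genes measured on all arrays. No probe was matched to Mmp1b.

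The study hybridised total RNA to 4 one-colour Agilent arrays, 1 per group. Treated back skin had been shaved, covered with methyl aminolevulinate cream (Metvix), kept in darkness for 2.5 h and exposed to 2.5 J/cm2 of red light at 636 nm. Control back skin received no photodynamic treatment, and whether it was shaved is not stated in the labels. Treated tail skin received the same cream, dark time and wavelength at 10 J/cm2. Control tail skin received no photodynamic treatment. Methyl aminolevulinate is a precursor from which cells make protoporphyrin, a pigment that produces reactive oxygen species under red light. Dose and shaving differed between the back and the tail, so skin site and dose cannot be told apart. If control back skin was left unshaved, shaving and photodynamic treatment cannot be told apart within the back either. Each group comprised 3 animals by the design, but whether the RNA of 3 animals was pooled or 1 animal was hybridised is not stated. Strain, sex and age are not given in the labels. The labels name the tail samples as skin and the extraction protocol names tail epidermis.

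With 1 array per group there was no replicate error and no test. A difference was called from 2-fold upward, which is a rule of size, and each count of members is set beside the share of all genes that passed the same rule. Values after ± are the error that the scanner software assigns to the 2 spots compared and say nothing of the spread between animals. In these bulk samples, fewer cells of a type and less RNA per cell cannot be told apart.

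Matrix metalloproteinases are zinc-dependent proteases that are made as inactive proenzymes, activated by removal of a propeptide and held in check by the tissue inhibitors of metalloproteinases (TIMPs). Together they cleave collagens, laminins, elastin and other components of the extracellular matrix and many cell-surface proteins. In skin wounds, keratinocytes at the migrating edge, fibroblasts, neutrophils and macrophages each make a different set. Rodents carry Mmp1a and Mmp1b in place of the single interstitial collagenase gene of humans, while mouse Mmp13 is the main interstitial collagenase of mouse tissue.

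Signals were divided by the 75th percentile of their array and are given as a percentage of it, a level that is comparable between arrays for 1 probe but not between probes. That percentile was a signal of 1204 in treated back skin, 1860 in control back skin, 909 in treated tail skin and 7261 in control tail skin, so the 2 tail arrays differed most in brightness. Between 79.2% and 88.7% of genes were well above background on an array. All basal, wound and terminal keratinocyte markers on the array were well above background in every group, and 11 of 12 fibroblast markers and at least 6 of 8 skeletal muscle markers were so in both tail samples. Among all genes, calls in the back split almost evenly, with 51.8% of them higher, but in the tail 80.6% were higher. The tail split was 57.8% higher after quantile normalization, 54.0% after cyclic loess, 91.5% after normexp background correction and 1.71% when arrays were scaled on the 6 added control RNAs (spike-in scaling), which put the median over all genes at -1.50 in place of 0.33 on the log2 scale. Normexp, which adds a constant of 50 to each corrected signal, put that median at 0.63. The back split was 21.8% higher under spike-in scaling, with a median of -0.43 in place of -0.01.

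In treated back skin, 8 of the 9 members were higher than in control back skin by 2-fold or more and 1 was lower, against 13.6% of all genes higher and 12.6% lower. The median difference of the 9 members was 2.24 (log2), against -0.01 over all genes, and it was 1.68 over the 7 members measured on both arrays. In treated tail skin, of 7 members with a value, 1 was higher than in control tail skin, 3 were lower and 3 lay within 2-fold, against 27.2% of all genes higher and 6.55% lower. Their median was -0.41 against 0.33 over all genes. The collagenase Mmp13 and the stromelysins Mmp3 and Mmp10 differed in opposite directions in the 2 skins, except that Mmp10 in the tail was at 0.11 after normexp.

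**Figure D1:**
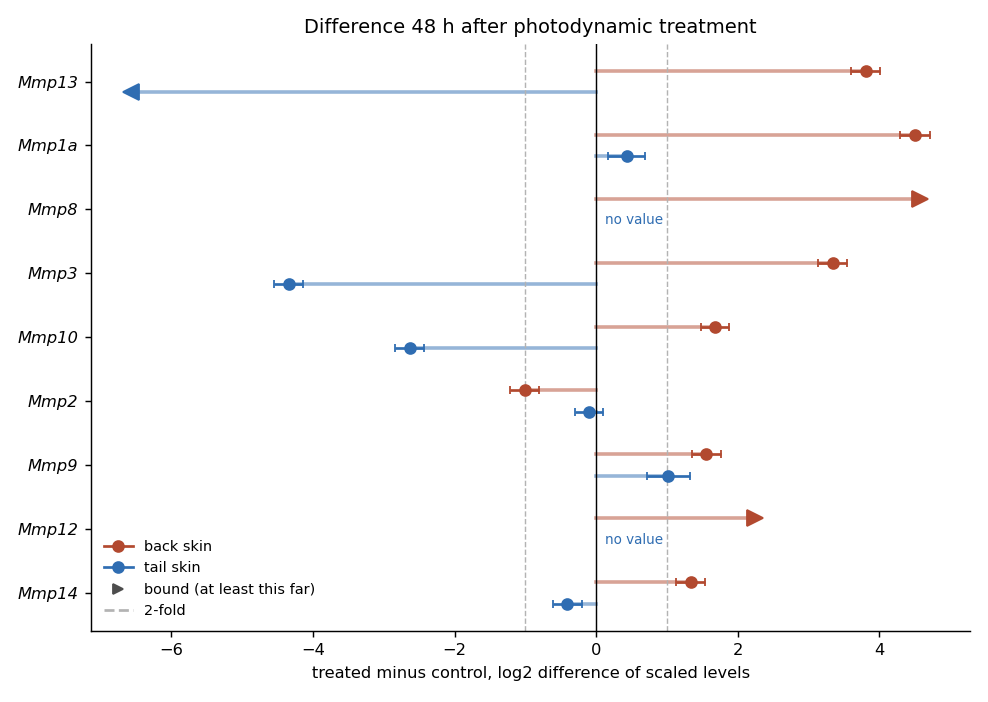
Differences between treated and control skin for the 9 metalloproteinase genes with a probe, as the log2 difference of levels scaled to the 75th percentile of each array. Points are measured differences with the scanner's error, arrows are bounds, and dashed lines mark 2-fold. Mmp13, Mmp3 and Mmp10 point right in the back and left in the tail, with Mmp10 in the tail at 0.11 under normexp background correction.

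**Figure D2:**
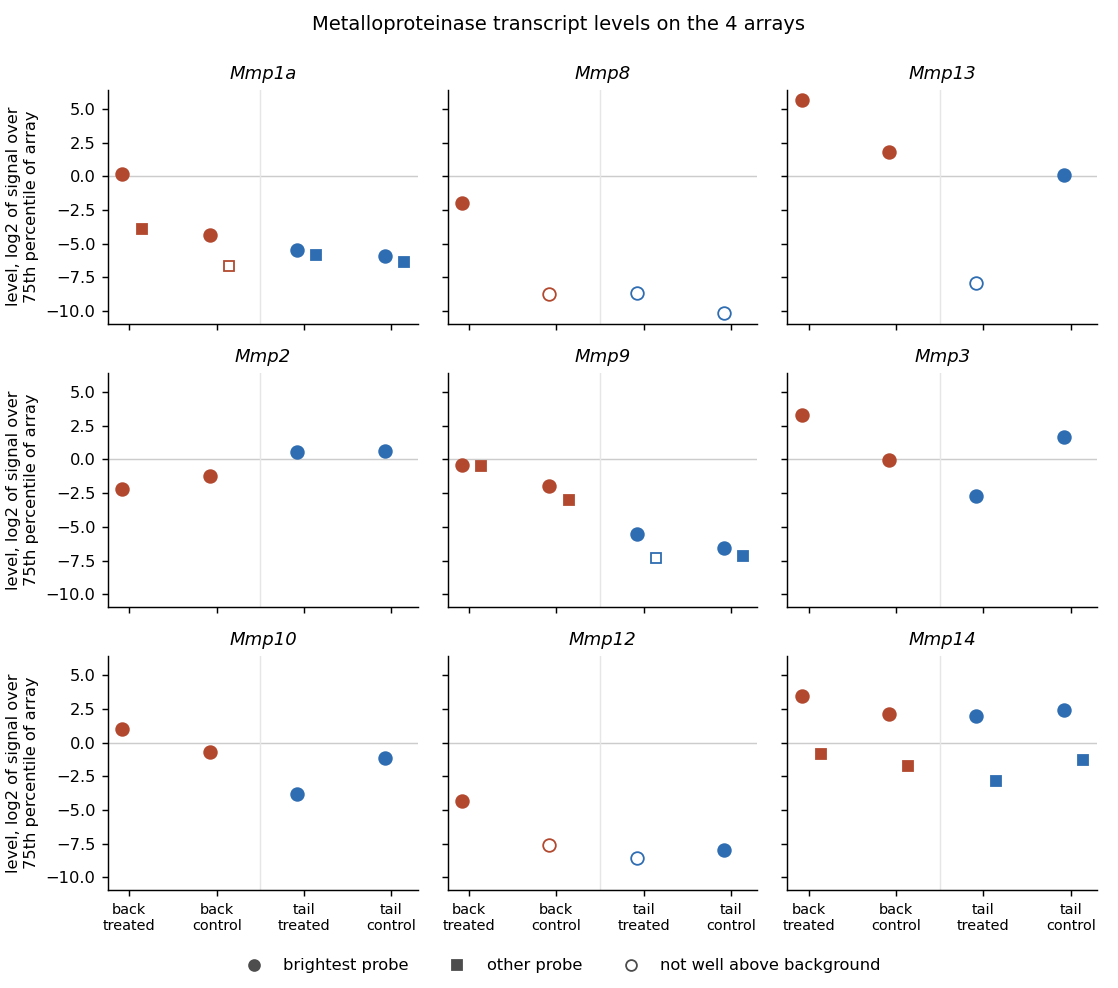
Levels of each gene on the 4 arrays, as log2 of the signal over the 75th percentile of the array, where 0 is the percentile itself. Circles are the brightest probe of a gene, squares a second probe, and open symbols were not well above background. The treated back sample holds the highest level of 8 genes, and Mmp2 is the exception.

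Most members lie next to one another in the genome. In the RefSeq annotation of GRCm38.p6, chromosome 9 carries Mmp13, Mmp12, Mmp1b, Mmp3, Mmp1a, Mmp10 and Mmp8 in this order, followed by Mmp27, Mmp20 and Mmp7, with Dcun1d5 and Tmem123 as the flanking genes. The 300 bases around each annotated start (250 before, 50 after) were searched for the binding motif of AP-1, the Fos and Jun family of stress-responsive factors, as TGAGTCA or its reverse complement TGACTCA. Of the 10 members, 8 had a promoter entry, and 6 of these 8 held the motif: Mmp13, Mmp1a, Mmp1b, Mmp3, Mmp10 and Mmp12 (the last at 1 of 2 annotated starts). The share over all 32851 promoters was 5.20%, counted per annotated start and not per gene. All 6 genes lie in the chromosome 9 cluster and are not independent cases. TATAAA on the gene's own strand stood in 8.32% of all promoters and in the same 6 genes. Neither motif was found in these windows of Mmp8 and Mmp14. Outside the members, Mmp7 of the same cluster held both at 1 of 2 annotated starts, with the AP-1 motif at -63 and TATAAA at -123 and -26. Mmp7 was within 2-fold in the back (0.58) and at 1.54 in the tail, or -0.40 there under spike-in scaling. The promoters of Mmp2 and Mmp9 are not used here. A match to letters is a description and does not show that a factor binds.

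The 120 bases before the start, 5′ to 3′ on the gene's strand (+) from RefSeq GRCm38.p6, are shown for the 4 genes of the cluster that were called in back skin and had a measured difference, with Mmp14 as a member that lacks both motifs. Capitals mark the AP-1 motif and TATAAA.
Mmp13 (chr9:7272394-7272513): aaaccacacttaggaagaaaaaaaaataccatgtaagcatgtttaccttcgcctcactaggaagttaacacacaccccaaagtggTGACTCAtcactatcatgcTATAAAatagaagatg
Mmp1a (chr9:7464021-7464140): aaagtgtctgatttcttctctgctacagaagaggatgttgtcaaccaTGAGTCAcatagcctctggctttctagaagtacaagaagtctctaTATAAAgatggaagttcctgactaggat
Mmp3 (chr9:7445702-7445821): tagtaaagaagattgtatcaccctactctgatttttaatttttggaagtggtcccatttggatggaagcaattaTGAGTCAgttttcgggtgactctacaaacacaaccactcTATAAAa
Mmp10 (chr9:7502222-7502341): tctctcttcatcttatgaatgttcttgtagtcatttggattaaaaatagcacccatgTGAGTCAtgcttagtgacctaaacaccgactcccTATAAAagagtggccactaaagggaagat
Mmp14 (chr14:54431478-54431597): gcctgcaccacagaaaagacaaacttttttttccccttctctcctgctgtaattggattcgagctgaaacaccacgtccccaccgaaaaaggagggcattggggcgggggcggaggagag

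The AP-1 motif began at position -35 in Mmp13, -46 in Mmp3, -63 in Mmp10, -73 in Mmp1a, -93 in Mmp1b and -44 at the second start of Mmp12, where -1 is the last base before the start. It reads TGACTCA in Mmp13 and TGAGTCA in the other genes. In Mmp1a and Mmp10, TATAAA began at -28 and -29, whereas in Mmp13 and Mmp3 it began at -16 and -7, nearer to the annotated start.

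**Figure D3:**
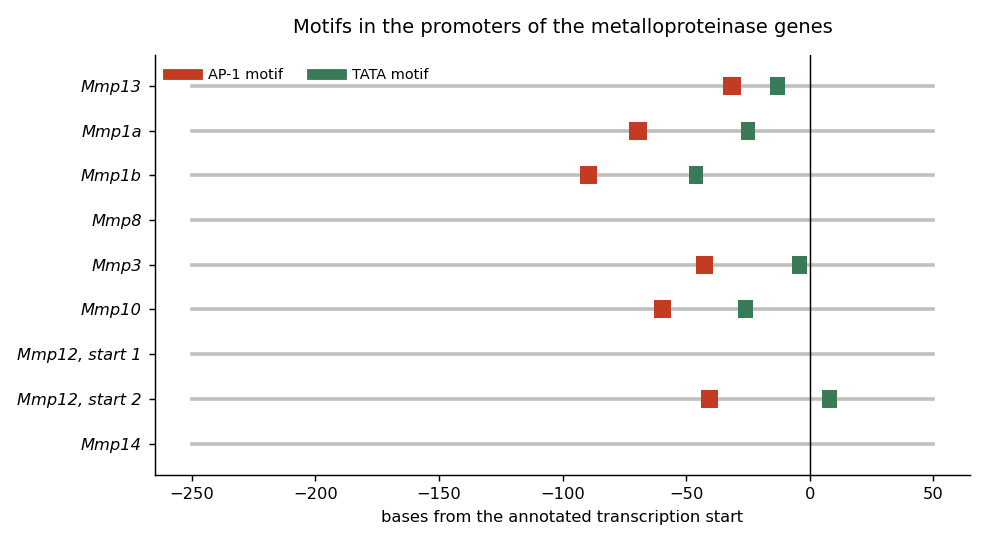
Positions of the AP-1 motif (red) and of TATAAA (green) in the 300 bases around each annotated start, in bases from the start at 0. The cluster genes Mmp13, Mmp1a, Mmp1b, Mmp3, Mmp10 and the second start of Mmp12 hold both motifs, and Mmp8, Mmp14 and the first start of Mmp12 hold neither.

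Mmp13, a collagenase that cuts fibrillar collagens, had a level of 4995% of the 75th percentile in treated back skin, against 357% in control back skin. It was at 0.417% in treated tail skin, not well above background, against 107% in control tail skin. The probe was therefore brightest in the treated back and not above background in the treated tail. The difference was 3.81 ± 0.20 on the log2 scale in the back, which is 14.0-fold higher, and at least 95.2-fold lower in the tail (-6.57 on the log2 scale, and -1.13 after normexp). The signal behind the tail bound was 3.79, against a lowest signal well above background of 10.3 on that array. Control tail skin itself had a signal of 7801 for this probe.

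Mmp1a, a rodent relative of human interstitial collagenase, reached 110% in treated back skin, against 4.85% in control back skin. Its level was 2.20% in treated tail skin, against 1.64% in control tail skin. The treated back stood far above the other 3 groups, and 22.7-fold (4.51 ± 0.22) above control back skin. The tail difference of 0.43 ± 0.26 had no stable size or direction over the settings: it was 4.26 after normexp, -0.35 after quantile normalization, -0.05 after cyclic loess and -1.51 under spike-in scaling. A second probe was also highest in treated back skin, at 6.76%, against 1.01% in control back skin, which was not well above background, so that the difference was at least 6.33-fold. That second probe differed by 0.54 in the tail.

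Mmp8, the collagenase stored in neutrophil granules, was measured only in treated back skin, at 25.5%. It was not well above background in control back skin, treated tail skin or control tail skin, where signals were 4.29, 2.27 and 6.35 against 307 in treated back skin. The back difference was at least 23.9-fold (4.58 on the log2 scale, and 2.92 after normexp), and the tail has no value.

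The stromelysin Mmp3, which cleaves laminin, proteoglycans and other matrix proteins and activates procollagenases, had a level of 980% in treated back skin against 96.9% in control back skin. In treated tail skin it was 15.4%, against 313% in control tail skin. The treated back was thus highest and the treated tail lowest of the 4. Back skin differed by 3.34 ± 0.20 (10.1-fold higher) and tail skin by -4.34 ± 0.21 (20.3-fold lower), and both directions held in every setting that gave a value, over 2.90 to 3.36 in the back and -6.28 to -2.51 in the tail.

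Mmp10, the second stromelysin, which keratinocytes at a wound edge are known to make, was at 202% in treated back skin and 63.1% in control back skin. Its tail levels were 7.16% in treated skin and 44.5% in control skin. The order of the groups was that of Mmp3 except that the untreated samples changed places. The difference was 1.68 ± 0.20 (3.20-fold higher) in the back and -2.64 ± 0.21 (6.21-fold lower) in the tail, where normexp background correction gave 0.11. The signal behind the treated tail value was 65.1, close to the constant of 50 that normexp adds.

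Mmp2, the gelatinase that fibroblasts make constitutively, had 21.4% in treated back skin against 43.0% in control back skin. In the tail it had 144% in treated skin against 154% in control skin. Both tail samples lay above both back samples. The back difference of -1.01 ± 0.21 (2.01-fold lower) sat on the threshold, at -0.79 after normexp background correction, and the tail difference was -0.10 ± 0.20, or -2.04 under spike-in scaling.

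Mmp9, the gelatinase of neutrophils, macrophages and wound keratinocytes, had 76.0% in treated back skin against 25.8% in control back skin. In the tail, levels were 2.12% in treated skin and 1.05% in control skin. Both back samples lay far above both tail samples, whatever the treatment. The back difference was 1.56 ± 0.20 (2.94-fold higher), while the tail difference of 1.02 ± 0.31 (2.02-fold higher) sat on the threshold and was 4.83 after normexp, 0.21 after quantile normalization and -0.92 under spike-in scaling. A second Mmp9 probe was spotted 10 times on each array, with 9 spots used in control back skin. Its spot signals ranged from 827 to 893 in treated back skin, 215 to 247 in control back skin, 2.71 to 10.6 in treated tail skin and 41.4 to 59.0 in control tail skin. These are processed signals before scaling, and repeated spots on 1 array are not replicates of a group. None of the 10 spots in treated tail skin was well above background. Scaled levels of this probe were 0.615% in treated tail skin and 0.684% in control tail skin. After scaling, it was 5.81-fold higher in treated than in control back skin and had no value in the tail.

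Mmp12, the elastin-cleaving enzyme of macrophages, was at 5.04% in treated back skin and not well above background in control back skin, a difference of at least 4.72-fold (2.24 on the log2 scale, and 1.23 after normexp). In the tail it was not well above background in treated skin and was 0.397% in control skin, which left no value.

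Mmp14, a membrane-anchored enzyme that activates pro-Mmp2 on the cell surface, had 1094% in treated back skin against 434% in control back skin. It had 404% in treated tail skin against 536% in control tail skin. The treated back sample stood above the other 3, which lay close together. The difference was 1.33 ± 0.20 (2.52-fold higher) in the back, where spike-in scaling gave 0.90, and -0.41 ± 0.20 in the tail, where cyclic loess gave -1.04 and spike-in scaling -2.35. Its second probe gave 0.92 in the back and -1.53 (2.89-fold lower) in the tail, so the 2 probes fell on different sides of the 2-fold rule in both skins.

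Taking the response of the back minus that of the tail, 5 of 7 members were higher by 2-fold or more and 0 were lower, against 15.5% of all genes higher and 30.2% lower. Their median was 4.08 against -0.24 over all genes. For Mmp13 this difference of differences was at least 10.38, for Mmp3 it was 7.68, for Mmp10 4.31, for Mmp1a 4.08 and for Mmp14 1.74. That of Mmp9 was 0.54 and that of Mmp2 -0.90, both within 2-fold. Under normexp background correction the value of Mmp13 was 4.98, that of Mmp10 1.43, that of Mmp1a -0.50 and that of Mmp9 -3.51, so the bound for Mmp13 holds for the processed signal only and the last 2 turned in direction. Under spike-in scaling Mmp9 was at 2.04 and Mmp2 at 0.60. Among all genes the share of calls that were higher was 33.9%, against 50.9% after quantile normalization, 50.4% after cyclic loess, 21.4% after normexp and 90.7% under spike-in scaling.

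Control back skin was also set against control tail skin. Of 7 members with a value, 3 were higher in the back and 2 were lower, against 27.4% of all genes higher and 17.2% lower. Mmp9 differed most, at 4.63 ± 0.23 (24.7-fold higher), and its second probe gave 17.9-fold. Mmp13 was 3.32-fold and Mmp1a 2.96-fold higher, while Mmp2 was 3.58-fold and Mmp3 3.23-fold lower. Mmp10 (0.50) and Mmp14 (-0.30) lay within 2-fold. Under spike-in scaling, Mmp13 was at 0.77 and Mmp1a at 0.61, Mmp10 turned to -0.46, and Mmp9, Mmp2 and Mmp3 kept their directions at 3.67, -2.80 and -2.65. The split of calls over all genes was 61.4% higher, against 47.3% after quantile normalization, 48.0% after cyclic loess and 18.9% under spike-in scaling. This comparison shares its control arrays with the 2 treatment comparisons.

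Metalloproteinases outside these 10 genes were also measured. Of 10 others with a value, 2 were higher in treated than in control back skin, 1 was lower and 7 lay within 2-fold, with a median of 0.05. These counts lie near the 13.6% of all genes higher and 12.6% lower. After normexp 0 were higher and 0 lower, and under spike-in scaling 0 were higher and 3 lower. Those higher were Mmp25 (1.17), a membrane-anchored enzyme of leukocytes, and Mmp24 (1.11), and the lower one was Mmp17 (-1.02), also membrane-anchored. In the tail 5 of 10 were higher and 1 was lower, against 27.2% of all genes higher and 6.55% lower, with a median of 0.97. These were Mmp24 (1.74), Mmp7 (1.54), the matrilysin of epithelia, Mmp25 (1.25), Mmp21 (1.24) and Mmp23 (1.21), and Mmp15 (-1.21, and 0.25 after normexp) was the lower one. After cyclic loess the 5 were at 1.08, 0.96, 0.37, 0.47 and 0.58 in the same order, and under spike-in scaling all were negative. After normexp 9 of the 10 were higher and 0 lower, and after quantile normalization 1 was higher and 2 lower. Mmp11, Mmp19 and Mmp28 were at -0.88, -0.83 and -0.06 in the back. In the tail they were at 0.49, 0.72 and -0.49, at 3.56, 4.53 and 4.13 after normexp, and at -1.45, -1.22 and -2.43 under spike-in scaling, so their tail differences depended on the setting. Mmp17 was at 0.74 in the tail, where its second probe was at least 1.83-fold lower. Mmp16 and Mmp20 were not well above background in any sample.

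None of the 6 inhibitors with a value differed by 2-fold in the back, against 13.6% of all genes higher and 12.6% lower. The differences were 0.50 for Timp1, -0.44 for Timp2, -0.53 for Timp3, -0.57 for Timp4, 0.01 for the membrane-anchored inhibitor Reck and 0.17 for the plasma protease inhibitor A2m. In the tail 4 of 6 were higher and 0 were lower, against 27.2% of all genes higher and 6.55% lower, with a median of 1.17. A2m was higher by 3.49, Timp4 by 2.74, Reck by 1.19 and Timp1 by 1.14 (0.48 by a second probe), while Timp2 (0.61) and Timp3 (0.52) lay within 2-fold. Quantile normalization left 2 of the 6 higher and cyclic loess 3, with Reck at 0.44 and 0.39 and Timp1 at 0.90 and 1.03. Timp3 was at -0.05 after cyclic loess and -0.20 after normexp. Under spike-in scaling Timp1, Timp2, Timp3 and Reck turned negative, at -0.80, -1.33, -1.42 and -0.75, and A2m and Timp4 stayed positive at 1.55 and 0.80. The inhibitor Timp1 had 52.2% in treated back skin against 37.0% in control back skin, and 25.9% in treated tail skin against 11.7% in control tail skin. Pzp and Tfpi2 were not well above background in any sample.

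A list of proteases, receptors and plasma proteins linked to metalloproteinase activation was mixed in the back, with 4 of 11 higher and 1 lower, against 13.6% of all genes higher and 12.6% lower. Among those higher, the urokinase receptor Plaur was at 2.02 and plasminogen (Plg) at 2.00, or 0.36 as the mean of its probes. In the tail 4 of 12 were higher and 0 lower, against 27.2% and 6.55% of all genes. The highest were Kng1 (3.15), which encodes kininogen, a plasma precursor of kinins and not a protease or a receptor, neutrophil elastase Elane (3.02) and Plg (2.97). After normexp 7 of 12 were higher and 0 lower, and under spike-in scaling 3 of 14 were higher and 9 lower. Plaur was at -0.50 in the tail, and at 1.43 after normexp. Of the ADAM and ADAMTS proteases, 1 of 11 was higher and 2 were lower in the back (Adam19 at -2.94), against 13.6% of all genes higher and 12.6% lower. In the tail 3 of 11 were higher and 1 lower (Adamts4 at 2.87, Adam10 at -1.98), near the 27.2% and 6.55% of all genes there. In the tail, normexp gave 4 higher and 0 lower with Adam10 at 0.54, cyclic loess gave 1 higher and 4 lower, and spike-in scaling gave 0 higher and 8 lower.

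Matrix proteins that these enzymes cleave also differed. In the back 7 of 15 were higher and 2 lower, against 13.6% of all genes higher and 12.6% lower. The largest measured differences were 4.87 for osteopontin (Spp1), 3.92 for tenascin-C (Tnc) and 2.93 for decorin (Dcn), while the fibrillar collagens Col5a1 (-1.52) and Col1a1 (-1.29) were lower. As the mean of their probes, these collagens were at -0.38 and -0.90, within 2-fold, and Col5a1 was at -0.92 after normexp. In the tail 6 of 14 were higher and 3 lower, against 27.2% of all genes higher and 6.55% lower. There were 10 higher and 2 lower after normexp, and 0 of 15 higher and 7 lower under spike-in scaling. Tnc (-2.22) and Eln (1.93) differed most in the tail, with Tnc at 0.05 after normexp and Eln at -0.01 under spike-in scaling. Tnc had 520% in treated back skin against 34.4% in control back skin, and 11.0% in treated tail skin against 51.2% in control tail skin, the order of the 4 samples that Mmp3 had.

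Transcripts of AP-1 subunits were not higher in the back. Of 7 with a value, 0 were higher and 5 were lower, against 13.6% of all genes higher and 12.6% lower, with a median of -1.18. After quantile normalization 3 were lower, with a median of -0.70, Fosl2 at -0.65 and Atf3 at -0.70. Fosb was at -2.55, Jun at -1.52 and Fosl1 at -1.47 on the log2 scale. In the tail 1 of 7 was higher and 3 were lower, against 27.2% of all genes higher and 6.55% lower. The higher one was Batf at 1.25, with 0.44 after quantile normalization and -0.69 under spike-in scaling. Among the lower ones were Fosl1 (-4.41) and Fosb (-3.12), and 5 were lower after cyclic loess and normexp. Atf3 was at least 52.5-fold lower in treated tail skin, since it was saturated in control tail skin. Of cytokines and growth factors known to induce metalloproteinases, 2 of 13 were higher in the back and 2 lower. These counts lie near the 13.6% of all genes higher and 12.6% lower. Il24 was at 5.83, Ereg at -3.53 and Il1a at -2.55. In the tail 3 of 12 were higher, near the 27.2% of all genes, and 5 were lower, against 6.55% of all genes (median -0.33). Tnf was at -4.77, Ereg at -3.64 and Osm at 3.36 there. After normexp 5 were higher and 3 lower (median 0.55) and Tnf was at -0.67, within 2-fold, and under spike-in scaling 1 of 13 was higher and 9 lower.

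**Figure D4:**
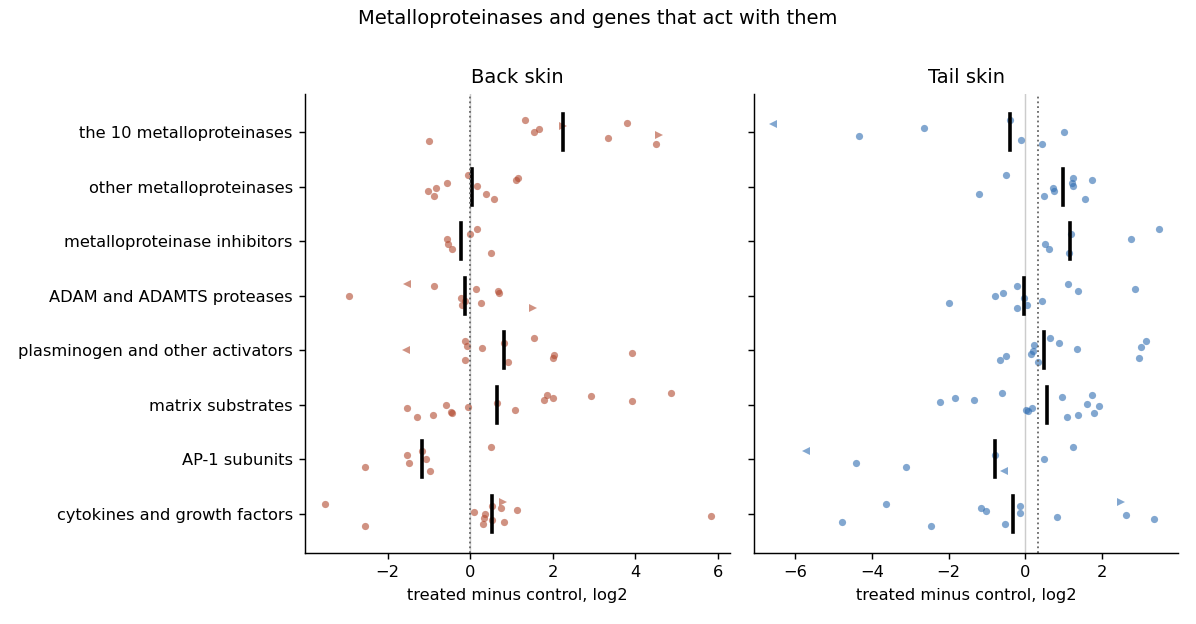
Differences between treated and control skin for the metalloproteinases with a value and for 7 groups of related genes, in log2, with 1 point per gene, arrows for bounds, a bar at the group's median and a dotted line at the median of all genes. In the back the metalloproteinase bar stands at 2.24 and the inhibitor bar at -0.22. In the tail they stand at -0.41 and 1.17, and most inhibitors turn negative there under spike-in scaling, while 2 of 6 stay higher by 2-fold after quantile normalization.

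Marker genes of several cell types also differed between treated and control skin. Of the neutrophil markers, 9 of 11 with a value were higher in the back and 8 of 10 in the tail, with 0 lower in either. Among all genes, 13.6% were higher and 12.6% lower in the back, and 27.2% and 6.55% in the tail. Under spike-in scaling 4 of 11 of these markers were higher and 3 lower in the tail. S100a8 and S100a9, which wounded keratinocytes also make, were saturated in both treated samples. Over the 13 markers saturated on no array, the summed level was 6.84 times the 75th percentile in treated back skin, 0.597 in control back skin, 0.323 in treated tail skin and 0.147 in control tail skin. Such a sum adds probes of unlike brightness and is led by the brightest of them. Retnlg was higher by 5.47, Csf3r by at least 4.60 and Clec4e by 4.25 in the back, beside the differences of Mmp8 and Mmp9 there. Camp and Ngp were not well above background on any array. The part of neutrophils in the result was not tested.

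Macrophage markers beside Mmp12 numbered 6 higher and 1 lower (Arg1 at -1.32) of 14 in the back, with Cd163 at least 40.0-fold higher and Mrc1 at 3.34. The back shares over all genes were 13.6% higher and 12.6% lower. In the tail 7 of 12 of these markers were higher and 0 lower, against 27.2% of all genes higher and 6.55% lower. Spike-in scaling gave 1 of 13 higher and 5 lower in the tail. The summed level was 11.5 in treated back skin, 7.64 in control back skin, 8.95 in treated tail skin and 3.99 in control tail skin. Fibroblast markers, beside Mmp2 and Mmp14, numbered 4 higher and 1 lower of 10 in the back, against the same back shares over all genes. In the tail 7 of 11 were higher and 2 lower, against 27.2% and 6.55% of all genes, and spike-in scaling gave 0 higher and 3 lower. Over the 11 of them saturated on no array, the summed level was 28.2 in treated back skin, 12.4 in control back skin, 11.5 in treated tail skin and 7.35 in control tail skin. Lists of cell types not set beside a member here differed too. In the tail 6 of 6 adipocyte, 5 of 6 endothelial and 5 of 6 skeletal muscle markers were higher and 0 lower. Under spike-in scaling 0 of 6, 1 of 7 and 2 of 7 of them were higher. In the back 4 of 5 terminal keratinocyte and 3 of 4 T cell markers were lower and 0 higher. Over all genes, 27.2% were higher in the tail and 12.6% lower in the back. The part of any of these cells in the result was not tested.

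Basal keratinocyte markers with a value differed in the same directions as the stromelysins Mmp3 and Mmp10, apart from Mmp10 in the tail after normexp. In the back 5 of 6 with a value were higher and 0 lower, against 13.6% of all genes higher and 12.6% lower. In the tail 4 of 4 with a value were lower, against 27.2% of all genes higher and 6.55% lower. The other 6 of the 10 were saturated in control tail skin and gave no tail value, so their direction there is not known. Integrin beta-1 (Itgb1) was at 1.87 in the back and -2.32 in the tail, Itga6 at 1.69 and -2.05, and Lamb3 at 1.78 and -1.34. All 10 markers were well above background in every group. The keratins Krt5, Krt14 and Krt15 gave no value in any comparison. Between 3 and 6 of the 10 were saturated per array. Over the 4 saturated on no array, the summed level was 28.6 in treated back skin, 7.65 in control back skin, 2.83 in treated tail skin and 9.73 in control tail skin. Wound keratinocyte markers did not share the tail direction. Of 7 with a value, 5 were higher and 0 lower in the back, against 13.6% of all genes higher and 12.6% lower. In the tail 5 of 7 were higher and 0 lower, against 27.2% and 6.55% of all genes. S100a8 and S100a9 belong to both this list and the neutrophil list, and both were among those higher in the tail. Under spike-in scaling 3 of 7 were higher and 2 lower in the tail. Whether the markers of either list have a part in the result was not tested.

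For the 4 members with the widest range among the 6 measured on all 4 arrays, a limit that leaves out Mmp13, Mmp8 and Mmp12, the nearest profiles were sought among 11110 genes so measured, as the root mean square distance of log2 levels after each gene was centred on its own mean. The 4 points of each profile share their arrays and their scaling, and the distances are a description. Nearest to Mmp10 were Itgb1 at 0.14, adrenomedullin (Adm) at 0.15 and Ccrl2 at 0.26. Nearest to Mmp3 were Ccrl2 at 0.69, Tnc at 0.80 and Mmp10 at 0.88. Among the nearest to Mmp1a were Samd12 at 0.36 and Anxa3 at 0.47, and nearest to Mmp9 were Cd7 at 0.26, Arhgap8 at 0.35 and Igf2bp2 at 0.39. The ranges of these 4 members over the arrays were 4.82, 5.99, 6.07 and 6.18 in the order named. Among these 6 members, Mmp3 and Mmp10 were the closest pair and Mmp2 and Mmp9 the most distant, at 3.73.

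**Figure D5:**
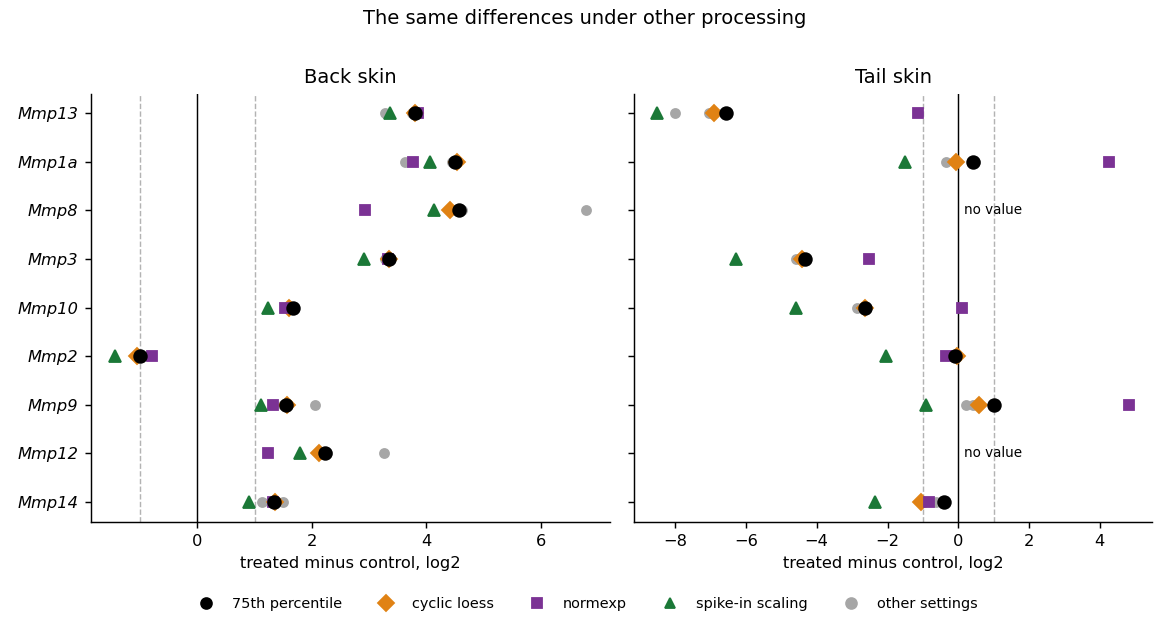
The same differences between treated and control skin under each scaling, background or filter setting, in log2. In the back every setting leaves each gene on its side of 0. In the tail Mmp3 and Mmp13 stay below 0 throughout, Mmp10 is at 0.11 after normexp, and Mmp1a and Mmp9 lie on either side of 0.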

How the data were processed

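Total RNA (200 ng per sample, per the labels' protocols) was labelled with Cy3 and hybridised to 4 one-colour arrays of 1 slide. A group and its position on the slide cannot be told apart. Sample titles gave the groups. The signal used is, per the file headers, the deposited background-corrected spot intensity of Agilent Feature Extraction 10.5.1.1, while the submitters' processing notes name 10.7. The deposited raw median intensities of spots and of their local background were used for normexp only. The authors' deposited table is on a log2 scale. How it was made is not stated. Its differences between arrays equalled those of the log2 processed signal within 0.01 for at least 99.7% of probes, once 1 constant per pair of arrays was removed. Against control tail skin the constants were 2.99 (treated tail), 1.95 (control back) and 2.58 (treated back). The 75th percentiles of the arrays give the same values to these digits. Its column medians were 0.08 (treated back), -0.03 (control back), 0.10 (treated tail) and -0.28 (control tail). Direction and scale were thus known. Whole-number flags for background, saturation and outliers come from the deposited files, per the file headers.

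Levels are log2 processed signals less the 75th percentile of their array, taken without control probes. Outlier spots were dropped, and repeats of a probe were averaged. Of 41174 probes, 24375 (59.2%) matched 1 symbol by accession in a RefSeq table of GRCm38.p6. The file headers name an older mouse build, so no gene coordinates are given besides those of the promoter table. The brightest probe stood for a gene, and every probe of a member was examined. Where a probe was not well above background, or was saturated, in 1 of 2 samples, the difference is a bound from the array's faintest signal well above background (10.3 to 21.2) or from the saturated value. The number of arrays limits the precision, and no p-value was computed. Repeated spots of a probe had a median SD of 0.0567 to 0.0691 (log2).

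The members and gene lists were chosen with earlier results of these data known. Named genes were all members, the other metalloproteinases and the inhibitors, up to 3 genes of each other list with the largest measured difference, and the 3 nearest profiles of the 4 members with the widest range among those measured on all arrays; a few further genes are named beside them (Col5a1, Col1a1, Adam10, Fosl2, Atf3, Batf, Arg1 and marker genes), chosen after their values were seen. Some genes that the rule would name are not reported here. Alternatives were other scalings (median, quantile, cyclic loess, spike-in), normexp with an offset of 50, the deposited table, other filters, the mean of a gene's probes and thresholds of 1.5-fold and 4-fold. The computation was tested on simulated data. Tools were Python 3.11.15 with pandas 2.3.3 and numpy 2.4.6, and R 4.3.3 with limma 3.58.1.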

Additional observations from a re-analysis of the deposited data

Results flagged for a closer look

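The stromelysin Mmp3 differed in opposite directions in the 2 skins, 10.1-fold higher in treated than in control back skin and 20.3-fold lower in treated than in control tail skin, and the back response minus the tail response was 7.68 on the log2 scale. The same held for the stromelysin Mmp10, with a difference of responses of 4.31, and for the collagenase Mmp13, where it was at least 10.38 from the processed signals and 4.98 after normexp background correction. For Mmp10 the tail difference was 0.11 after normexp, which is not in the opposite direction, and the difference of responses was then 1.43. These differences were not tested, because each group had 1 array. The 2 skins also differed in light dose (2.5 J/cm2 on the back, 10 J/cm2 on the tail), and the 75th percentile of the signal was 909 in treated tail skin against 7261 in control tail skin. The part of dose, shaving, brightness or array in the difference was not tested.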

How the results depend on the processing

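For the 8 counts of members, 80 alternatives left the count within 1.5 times its value and 24 did not. The count of members higher in treated back skin (8) was 5 among the 6 with signals of at least 200, and 5 at the 4-fold threshold. The single lower member there (1, Mmp2) was 0 after normexp, in the deposited table and at 4-fold. The count higher in treated tail skin (1, Mmp9) was 0 under median, quantile, cyclic loess and spike-in scaling, with signals of at least 200, with the mean of all probes and at 4-fold, and 2 after normexp and with no filter. The count lower there (3) was 6 under spike-in scaling and 0 among the 2 with signals of at least 200. In control back against control tail skin, the higher count (3) was 1 under spike-in scaling, with signals of at least 200 and at 4-fold, and the lower count (2) was 0 at 4-fold. For the back response minus the tail response, the higher count (5) was 1 with signals of at least 200, and the lower count (0) was 1 after cyclic loess, after normexp and at 1.5-fold. Directions turned for 3 called values: Mmp9 in the tail under spike-in scaling (-0.92), Mmp10 in the tail after normexp (0.11) and the difference of responses of Mmp1a after normexp (-0.50). Normexp adds 50 to every signal, which by construction is a larger share of small signals such as those in treated tail skin. No other offset was run, and the cause of any of these changes was not tested. Low signals limit Mmp8 and Mmp12 outside treated back skin, and Mmp13, Mmp1a and Mmp9 in treated tail skin. All genes higher in the tail (3496) were 2110 under quantile, 1936 under cyclic loess, 170 under spike-in scaling, 5739 after normexp and 6243 with no filter. No paired analysis was possible because each group had 1 array.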
